A study of Mus musculus with 12 samples.

Results

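Mouse embryos held at the 4-cell stage by the MEK inhibitor U0126 were compared with untreated embryos a day younger. The aim was to describe which messenger RNAs moved on from the 2-cell state in embryos kept in the inhibitor and arrested. ERK activity itself was not measured. The comparison uses 4 of the 12 arrays of the series, chosen by their titles. The U0126 day 2.5 group holds 2 arrays of embryos kept in 20 µM U0126 and collected at day 2.5, when they had arrested with 4 cells. The control day 1.5 group holds 2 arrays of untreated embryos collected at day 1.5, at the 2-cell stage. Untreated embryos of day 2.5, at the 4- to 8-cell stage, give the normal step over the same day and are the control day 2.5 group, also with 2 arrays. All embryos were of the ICR strain, and the design describes 2 independent experiments. The sources used here do not give how many embryos went into an array, nor when the inhibitor was added. The U0126 day 2.5 and control day 1.5 embryos differ in age, in cell number and in treatment at once, so the parts of these in a difference cannot be told apart. Setting U0126 day 2.5 against control day 2.5 holds the day fixed. These embryos still differ in treatment and in cell number or stage at once, and the parts of these cannot be told apart either.

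U0126 binds MEK1 and MEK2, the kinases that phosphorylate and switch on ERK1 and ERK2 downstream of receptors such as those for fibroblast growth factors. A mouse embryo starts on RNA stored in the oocyte. At the 2-cell stage that store is being destroyed while the embryo's own genome is switched on, first with a short burst of 2-cell genes and then with a broad wave of genes for mitochondria, ribosomes and protein turnover. Compaction, cell polarity and the split between trophectoderm and inner cell mass follow from the 8-cell stage on, and ERK is best known in the early mouse embryo for directing inner cells to primitive endoderm.

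Levels are given as log2(intensity + 1) of the probe set that stands for a gene, so a difference of 1 is a 2-fold change. Sizes and bounds hold for that probe set, and other probe sets of the same gene can give smaller changes. A level under 5 was treated as near background, and where both arrays of 1 group were under 5 the difference is a bound, counted from 5 to the other group's mean. Differences are U0126 day 2.5 minus control day 1.5 unless stated, with the standard error from limma's moderated test on all 12 arrays and a Benjamini-Hochberg adjusted p over 9929 genes. Each group has 2 arrays (n = 2). Since a level is relative to the other probe sets of its array, RNA per embryo was not measured, and fewer cells of a type cannot be told apart from less RNA per cell. The p-values measure the spread between these arrays, which may be in part technical.

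The arrays of a group resembled each other more than those of other groups. Pearson's r over the genes tested was 0.95 between the 2 U0126 day 2.5 arrays and 0.97 between the 2 control day 1.5 arrays, and it lay between 0.73 and 0.80 across these groups. Against control day 2.5 the U0126 day 2.5 arrays gave 0.92 to 0.94. The median gap between the 2 arrays of a group was 0.44 in U0126 day 2.5 and 0.41 in control day 1.5. The U0126 arrays differed from each other in both directions. Of 18 genes of the 2-cell stage, 6 were more than 1 log2 unit higher on replicate 2 than on replicate 1 and 0 the other way, against 5.1% and 12% of all genes tested. Of other lists, 5 of 16 glycolysis genes, 5 of 18 primitive endoderm markers, 7 of 27 junction genes, 5 of 22 ERK targets and 8 of 37 RNA decay genes were more than 1 higher on replicate 1. The part of this gap in the results was not tested. Markers of cells that could have come along were mostly near background. Of the markers on the array, 14 of 15 for cumulus and granulosa cells, 8 of 10 for oviduct epithelium and 12 of 14 for sperm lay under 5 on both arrays of either group, and so did 8 of 9 blood and immune markers in U0126 day 2.5 and 9 of 9 in control day 1.5. The log2 of the markers' summed intensity was 11.04 and 11.05 in U0126 day 2.5 against 11.64 and 11.44 in control day 1.5 for cumulus cells, and 12.39 and 11.36 against 12.53 and 11.83 for oviduct. It was 9.64 and 9.39 in U0126 day 2.5 against 11.06 and 11.58 in control day 1.5 for sperm, where Odf2 and Ldhc fell, and 7.71 and 7.19 against 6.10 and 6.08 for blood; the part of such cells in the results was not tested.

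Many genes differed between the arrested embryos and the 2-cell embryos. Of 9929 genes tested, 2787 (28.1%) were higher in U0126 day 2.5 than in control day 1.5 and 2188 (22%) were lower, 50.1% in all. The counts of every gene list against control day 1.5 are read against these shares. The changes were large: 975 rose and 1014 fell by more than 2 log2 units, and 64 rose and 182 fell by more than 4. The groups of arrays did not overlap in 71.2% of all genes tested, and in 2786 of the higher and 2184 of the lower genes. Among the higher genes 744 were under 5 on both control day 1.5 arrays, and among the lower genes 583 were under 5 on both U0126 arrays. All counts keep such genes. They also keep 53 higher genes that were under 5 on both U0126 arrays, and 11 lower genes that were under 5 on both control day 1.5 arrays. The median difference over all genes tested was 0.18, and 0.02 after each array was centred on its median, so a list's median is read against 0.18. Each call against control day 1.5 of a gene named for its rank, its list or its known role passed also with any 1 of the 4 arrays left out, and each such call against control day 2.5 that is given with a p did too, except where a p for a left-out array stands beside it.

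The normal step, which shares the control day 1.5 arrays, called 55.4% of the genes, 28% being higher at day 2.5 and 27.4% lower. Between U0126 day 2.5 and control day 2.5 themselves 13.9% were called, 9.22% higher and 4.71% lower in U0126 day 2.5. That last count is the less secure one. It was 1383 with all arrays, 808 on leaving out U0126 replicate 1, 575 on leaving out control day 2.5 replicate 2 and 409 on leaving out control day 2.5 replicate 1, and a fit on those 4 arrays alone called 0 (2245 at an unadjusted p under 0.05). After median centring 47.0% of its calls were higher in U0126 day 2.5, against 66.2% without. The counts of every gene list against control day 2.5 are read against the 9.22% higher and 4.71% lower of all genes tested.

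**Figure D1:**
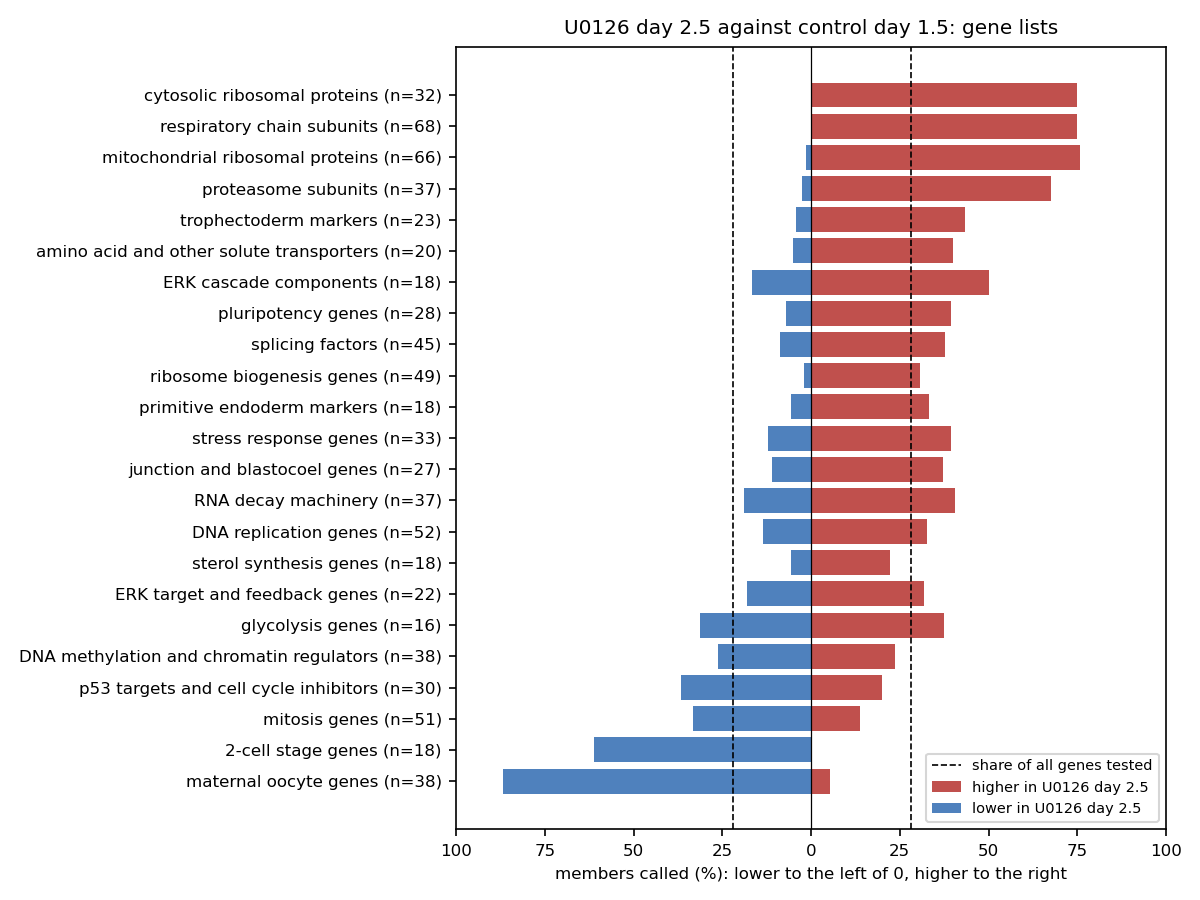
Share of each gene list called higher (red, right of 0) or lower (blue, left of 0) in U0126 day 2.5 than in control day 1.5, in percent of the members tested; n is the number tested and dashed lines mark the shares of all genes tested, 28.1% higher and 22% lower. Ribosomal, mitochondrial and proteasome lists extend far to the right, and the 2-cell and maternal lists far to the left.

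The rises were led by Vnn1. This gene, which encodes pantetheinase, had levels of 11.47 and 12.10 in U0126 day 2.5, against 5.20 and 3.23 in control day 1.5, a rise of 7.57 ± 0.51 (SE; limma adjusted p 2.6e-06). Acadl, the long-chain acyl-CoA dehydrogenase of mitochondrial fatty acid oxidation, stood at 10.45 and 10.82 in U0126 day 2.5 and at 4.96 and 4.33, near background, in control day 1.5; the rise was at least 5.64. Hadh, which acts later in the same pathway, was at 11.87 and 12.12 in U0126 day 2.5 and at 7.29 and 8.12 in control day 1.5 (difference 4.28 ± 0.32, adjusted p 4.45e-06). For all of these genes the arrays of the groups lay far apart. The other expressed probe sets of Hadh gave smaller differences, 1.23 and 3.13.

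Other genes that came up from background included Stx3, a syntaxin of apical membrane fusion, Rap2c, a small GTPase of the Ras family, and Tmx2, a thioredoxin-related membrane protein. Stx3 was at 10.18 and 9.82 in U0126 day 2.5 and at 4.40 and 3.54 in control day 1.5, at least 5.0 higher (adjusted p 1.14e-06). The other expressed probe set of Stx3 gave 2.34. Rap2c was at 8.57 and 8.62 in U0126 day 2.5 and at 3.72 and 3.97 in control day 1.5, at least 3.59 higher. Plekhh1, Ppic, Mpzl2 and Eid1 belonged to the same 8 genes, with rises of at least 3.29, 2.91, 3.47 and 2.59 and adjusted p of at most 1.23e-06. The other expressed probe set of Plekhh1 gave 1.44, and those of Eid1 gave 1.71 and 2.22. In all, 93 called genes were under 5 on both control day 1.5 arrays and at 7 or more on both U0126 arrays.

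Among genes measured at 5 or more on all 4 arrays the largest rises were those of Igbp1 (5.23 ± 0.29), Krtcap2 (4.95 ± 0.23), Commd9 (4.60 ± 0.39), Fam122b (4.58 ± 0.31) and Ndufa5 (4.51 ± 0.25). Igbp1 binds catalytic subunits of the PP2A phosphatase family, and Krtcap2 is a subunit of the complex that adds N-linked sugars to proteins. Igbp1 was at 10.96 and 11.25 in U0126 day 2.5 and at 5.57 and 6.18 in control day 1.5. Reep1, Rragd, Mrps31, Impact, Grn and Fkbp9 completed this set with Hadh, with rises between 4.10 and 4.45. Rragd, a Rag GTPase that links amino acid supply to mTORC1, reached 9.94 and 9.25 in U0126 day 2.5, 11.71 and 11.67 in control day 2.5 and only 5.25 and 5.38 in control day 1.5. It thus rose in arrested embryos but stood 2.09 ± 0.28 below control day 2.5 (adjusted p 0.00199).

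Genes for the mitochondrial respiratory chain and the mitochondrial ribosome were higher in the arrested embryos. Of 68 subunits of the respiratory chain and ATP synthase tested, 51 were higher in U0126 day 2.5 than in control day 1.5 and 0 were lower (0 also at an unadjusted p under 0.05, limma), with a median difference of 1.82. Of 66 mitochondrial ribosomal proteins tested, 50 were higher and 1 was lower, with a median of 1.52. The median over all genes tested was 0.18. The lower gene was Mrpl48, at 7.84 and 7.82 in U0126 day 2.5 and 8.87 and 9.21 in control day 1.5, and it did not pass on leaving out control day 1.5 replicate 2 (adjusted p 0.0641).

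Ndufa5, a complex I subunit, rose most in the first list. It was at 10.45 and 10.66 in U0126 day 2.5, 10.90 and 11.06 in control day 2.5 and 6.13 and 5.97 in control day 1.5, which makes it 22.7-fold higher in U0126 day 2.5 than in control day 1.5 (adjusted p 8.43e-07). Ndufa12, of the same complex, was at 10.87 and 11.14 in U0126 day 2.5 and at 7.34 and 7.33 in control day 1.5. Atp5d, the delta subunit of the F1 part of ATP synthase, was at 11.62 and 11.05 in U0126 day 2.5 and at 7.61 and 7.49 in control day 1.5 (difference 3.79 ± 0.27, adjusted p 3.31e-06). The lowest U0126 array lay more than 3 log2 units above the highest control day 1.5 array in each of the 3 genes. Among proteins of the mitochondrial ribosome Mrps31 (4.18 ± 0.25), Mrps34 (3.50 ± 0.29) and Mrpl36 (3.47 ± 0.55) rose most. Mrps31 was at 10.36 and 10.32 in U0126 day 2.5 and at 6.22 and 6.10 in control day 1.5.

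Set against control day 2.5, 0 of the 68 respiratory chain subunits and 0 of the 66 mitochondrial ribosomal proteins passed limma's test in either direction (at an unadjusted p under 0.05, 1 higher and 2 lower in either list). After median centring 1 gene of each list passed, as lower in U0126 day 2.5, and on leaving out U0126 replicate 2 so did 1 mitochondrial ribosomal protein. The differences ran between -0.97 and 0.68 with a median of -0.16 for the first list, and between -1.18 and 0.72 with a median of -0.14 for the second. The median standard errors of single genes were 0.29 and 0.33, which do not measure the error of a list median. Differences above 0 were found for 22 of the 68 and 27 of the 66 genes, and the median over all genes tested was 0.11. Whether the lists as a whole lay below control day 2.5 was not tested. In the normal step, 55 of 68 and 51 of 66 were higher in control day 2.5 than in control day 1.5.

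Nuclear genes for mitochondrial proteins are known targets of NRF1, a transcription factor that binds a GC-rich palindrome, and of ETS-family factors. The 8 letters GCATGCGC, taken here as the NRF1 core, were looked for on both strands of the 250 bases before each gene's start, as were the 8 letters CCGGAAGT of an ETS motif. The NRF1 core was in 7 of 57 respiratory chain promoters (12.3%) and 7 of 59 promoters of mitochondrial ribosomal proteins (11.9%), against 5.55% of the 8156 genes tested that had a promoter in the table and 2.56% of all 27025. The ETS letters were in 3 of 57 (5.26%) and 9 of 59 (15.3%), against 7.49% of the genes tested. Among all genes called higher in U0126 day 2.5 the shares were 5.8% and 8.5%, and among those called lower they were 4.97% and 5.19%. The ETS letters were in 16.1% of proteasome, 22.2% of cytosolic ribosomal protein and 21.95% of ribosome biogenesis promoters. Their share was thus not particular to the mitochondrial lists. The NRF1 core was in 6.45%, 0% and 2.44% of the promoters of those 3 lists. Of the 87 members of both mitochondrial lists that rose and had a promoter, 10 held the NRF1 core. A match is a description of the letters and not a binding site.

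The promoters of the 3 of these 10 genes with the largest rises are printed to show where the core lies. They are the 250 bases before the start, 5′ to 3′ on the gene's strand, from RefSeq on build GRCm38.p6, with the NRF1 core in capitals. Ndufa8 lies on the minus strand (chr2:36049339-36049588), Mrpl33 on the plus strand (chr5:31613701-31613950) and Mrpl39 on the minus strand (chr16:84735245-84735494).

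Ndufa8: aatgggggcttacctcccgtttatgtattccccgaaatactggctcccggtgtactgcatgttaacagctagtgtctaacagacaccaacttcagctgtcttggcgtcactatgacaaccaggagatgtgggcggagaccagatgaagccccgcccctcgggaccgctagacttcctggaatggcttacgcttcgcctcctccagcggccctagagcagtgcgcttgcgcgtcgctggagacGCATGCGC

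Mrpl33: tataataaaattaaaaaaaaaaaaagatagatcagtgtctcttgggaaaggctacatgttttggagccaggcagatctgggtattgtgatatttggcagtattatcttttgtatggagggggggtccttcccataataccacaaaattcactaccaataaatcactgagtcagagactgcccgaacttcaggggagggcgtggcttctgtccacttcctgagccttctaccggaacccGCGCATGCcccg

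Mrpl39: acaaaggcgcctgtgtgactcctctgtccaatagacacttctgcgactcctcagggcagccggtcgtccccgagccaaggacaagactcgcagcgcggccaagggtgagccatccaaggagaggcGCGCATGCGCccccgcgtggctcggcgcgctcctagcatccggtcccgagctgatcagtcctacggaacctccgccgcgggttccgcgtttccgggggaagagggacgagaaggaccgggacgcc

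In Ndufa8 and Mrpl33 the core sits next to the start, and in Mrpl39 a match on each strand overlaps in a run of 10 bases. These genes were chosen after their values were seen. Ndufa8, a complex I subunit, was at 8.73 and 7.88 in U0126 day 2.5 and at 4.99 and 5.48 in control day 1.5 (difference 3.07 ± 0.32). Mrpl33 was at 9.54 and 9.73 in U0126 day 2.5 and at 6.87 and 6.49 in control day 1.5 (2.96 ± 0.25), and Mrpl39 at 11.34 and 12.15 in U0126 day 2.5 and at 9.17 and 8.76 in control day 1.5 (2.78 ± 0.31). All 3 passed with any 1 of the 4 arrays left out.

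**Figure D2:**
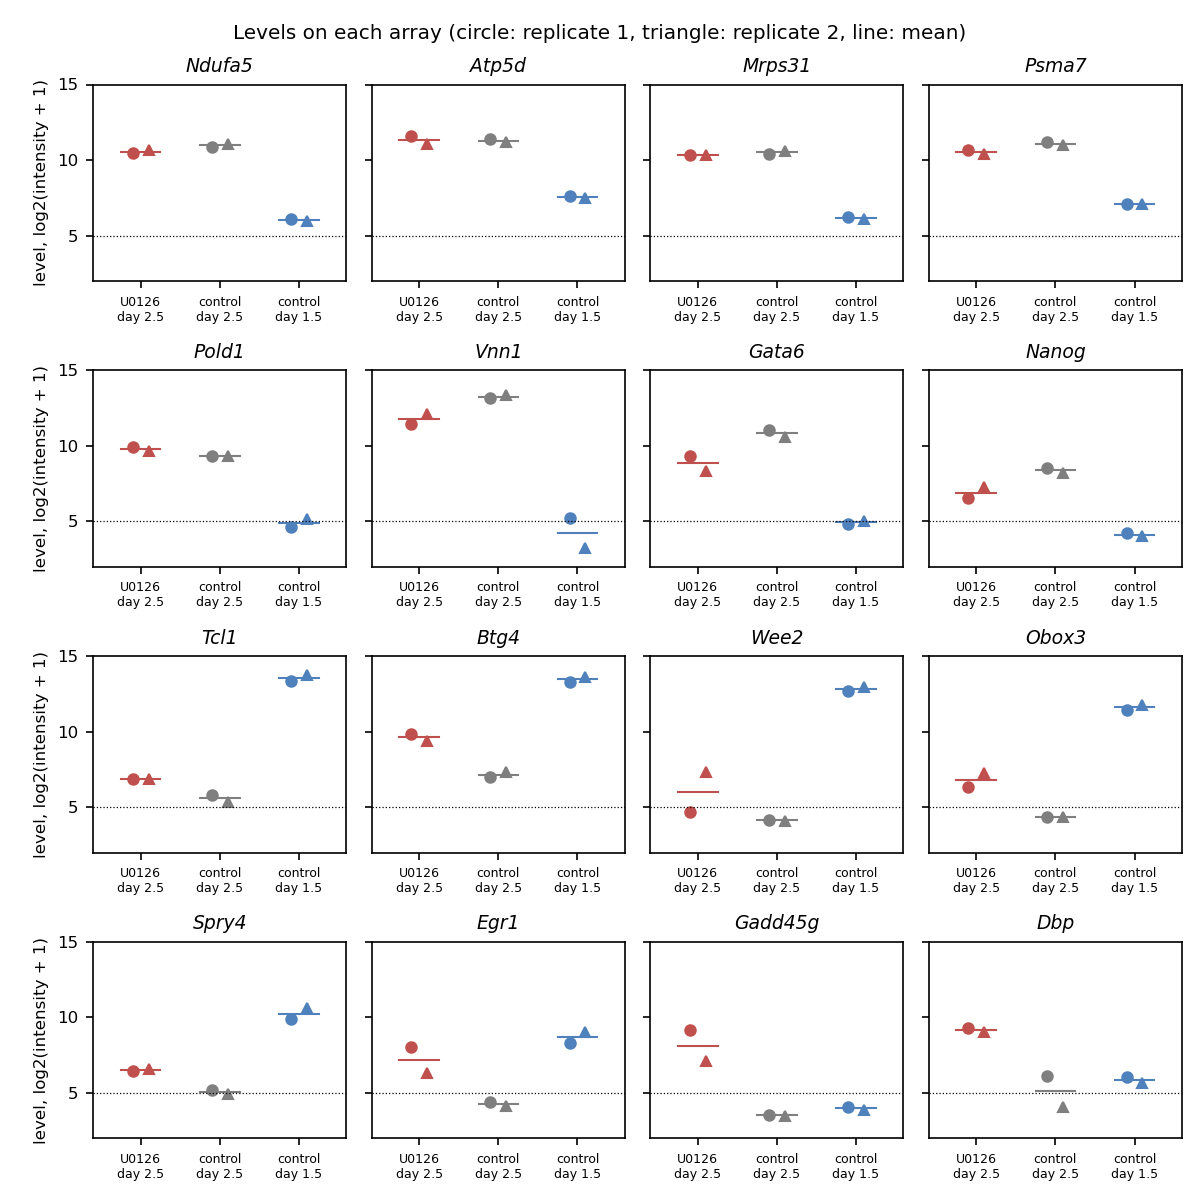
Level of 16 named genes on each array of U0126 day 2.5 (red), control day 2.5 (grey) and control day 1.5 (blue), as log2(intensity + 1); circles are replicate 1, triangles replicate 2, bars the mean of 2 arrays and the dotted line a level of 5. In the top row U0126 day 2.5 lies near control day 2.5 and far above control day 1.5; Btg4, Obox3, Spry4 and Egr1 lie between both controls.

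Machinery for making and removing proteins rose too. Of 32 cytosolic ribosomal proteins tested, 24 were higher in U0126 day 2.5 than in control day 1.5 and 0 were lower (0 also at an unadjusted p under 0.05), with a median difference of 1.32. Rps18, a protein of the small subunit, was at 14.12 and 13.82 in U0126 day 2.5 and at 12.10 and 11.56 in control day 1.5 (2.14 ± 0.27, adjusted p 0.000109). Rps6, the small-subunit protein that S6 kinases phosphorylate, was at 7.28 and 7.71 in U0126 day 2.5 and at 5.49 and 5.03 in control day 1.5 (2.23 ± 0.27). Rpl14 rose by 2.43 ± 0.60, from 1.28 to 3.59 depending on which array was left out. Only Rpl37 differed from control day 2.5 among the 32, at 7.41 and 8.56 in U0126 day 2.5 and 9.19 and 9.51 in control day 2.5, and it was singled out after its value was seen. It passed with U0126 replicate 2 left out but with none of the other 3 arrays left out. Ribosomal protein genes have many processed pseudogenes, and 34 of the 57 genes on the list had a probe set of 1 symbol.

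Of 37 proteasome subunits tested, 25 were higher and 1 was lower, with a median of 1.37. Psmb3, a beta-ring subunit, was at 12.61 and 12.84 in U0126 day 2.5 and at 8.14 and 9.49 in control day 1.5 (3.91 ± 0.42, adjusted p 3.38e-05). Psma7, an alpha-ring subunit, was at 10.64 and 10.40 in U0126 day 2.5 and at 7.11 and 7.08 in control day 1.5 (3.42 ± 0.24). The lower member, Psme4, encodes an activator that caps the core particle. It was at 11.59 and 12.03 in U0126 day 2.5 and at 12.66 and 13.04 in control day 1.5 (-1.04 ± 0.26).

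Of 49 genes that build ribosomes in the nucleolus, 15 were higher, a share near the 28.1% of all genes tested, and 1 was lower, with a median of 0.40. The count of higher genes was 6 on leaving out U0126 replicate 1 and 6 on leaving out control day 1.5 replicate 2. Wdr12 (2.53 ± 0.30), which acts in maturation of the large subunit, Ubtf (1.64 ± 0.32), a factor for RNA polymerase I, and Gnl2 (1.51 ± 0.28) rose most. The other expressed probe set of Wdr12 gave 0.14, and those of Gnl2 gave -0.19 and 2.04. Dkc1, the pseudouridine synthase, was the lower one (-0.82 ± 0.26, adjusted p 0.0215) and passed in 1 of 4 fits with an array left out, with adjusted p from 0.0566 to 0.0796 in the other 3.

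**Figure D3:**
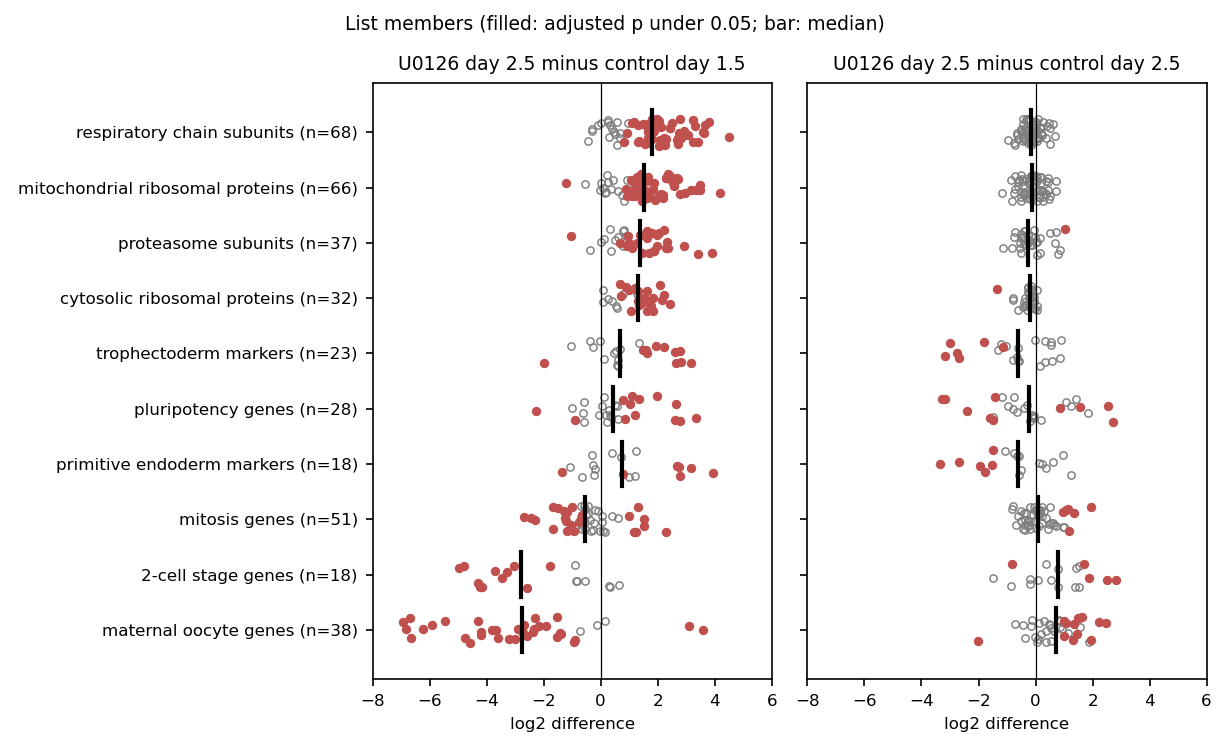
Log2 difference of each tested member of 10 gene lists, U0126 day 2.5 minus control day 1.5 on the left and U0126 day 2.5 minus control day 2.5 on the right; filled points have an adjusted p under 0.05, bars are list medians and n is the number of members. Respiratory chain subunits centre on 1.82 at the left and on -0.16 at the right, while maternal oocyte genes centre on -2.75 at the left.

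Stored maternal RNAs were mostly lower. Of 38 maternal oocyte genes tested, 33 were lower in U0126 day 2.5 than in control day 1.5 and 2 were higher, with a median of -2.75. Tcl1, a coactivator of AKT kinases abundant in oocytes, was at 6.88 and 6.89 in U0126 day 2.5 and at 13.33 and 13.73 in control day 1.5, a fall of 6.65 ± 0.26 (adjusted p 2.8e-07). Its relative Tcl1b1 fell by 6.94 ± 0.23, and Tcl1b4, near background in U0126 day 2.5, was at least 5.03 lower. Wee2, the oocyte kinase that holds CDK1 in check, was at 4.69 and 7.33 in U0126 day 2.5 and at 12.68 and 12.97 in control day 1.5 (-6.81 ± 0.69). Bmp15, an oocyte growth factor, was at 4.23 and 5.60 in U0126 day 2.5 and at 10.82 and 11.50 in control day 1.5 (-6.24 ± 0.41).

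Falls were smaller for other oocyte genes. Gdf9, the partner of Bmp15, was at 7.93 and 8.21 in U0126 day 2.5 and at 10.70 and 10.98 in control day 1.5 (-2.77 ± 0.39). Zp3, a zona pellucida protein, was at 7.45 and 8.17 in U0126 day 2.5 and at 9.63 and 9.04 in control day 1.5 (-1.53 ± 0.47), and did not pass on leaving out U0126 replicate 1 (adjusted p 0.122) or control day 1.5 replicate 1 (0.113). Dppa3 was at 12.59 and 12.44 in U0126 day 2.5 and 12.58 and 12.15 in control day 1.5, with a difference of 0.15 ± 0.38 (adjusted p 0.765). The 2 that rose were Khdc3, of the subcortical maternal complex (3.60 ± 0.37), and Zfp36l2, an RNA-binding protein that promotes decay of AU-rich messages (3.11 ± 0.34).

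Genes outside the list fell just as steeply. C86187, Pla2g4c and Bcl2l10 lost 6.33, 6.46 and 5.92 log2 units, and Oosp3, Iqca, AU015836, Pkd2l2, Bfsp1, Zbed3 and Pld1 lost between 5.21 and 5.82. Pla2g4c, a cytosolic phospholipase, was at 5.18 and 5.70 in U0126 day 2.5 and at 11.51 and 12.29 in control day 1.5, while its other expressed probe set gave -2.26. Antxr2, Fbxw4, Stat4, Oas1c, Bmp5, Sorbs2 and 6430710C18Rik were under 5 on both U0126 arrays and between 7.81 and 11.23 on the control day 1.5 arrays. In all, 129 called genes made such a fall from 7 or more to under 5.

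Part of the maternal list was still above control day 2.5. Of the 38, 12 were higher in U0126 day 2.5 than in control day 2.5 and 1, Khdc3, was lower, against 9.22% and 4.71% of all genes tested. The higher count was 6 after median centring, 6 with U0126 replicate 2 left out, 5 with control day 2.5 replicate 2 left out and 2 with control day 2.5 replicate 1 left out. Btg4, the adaptor that brings the CCR4-NOT deadenylase to maternal messages, was among them. It was at 9.83 and 9.41 in U0126 day 2.5, 6.97 and 7.35 in control day 2.5 and 13.29 and 13.60 in control day 1.5, so it fell by 3.83 ± 0.29 from control day 1.5 but stayed 2.46 ± 0.29 above control day 2.5 (adjusted p 0.00135). C86187 stood 2.74 ± 0.32 above control day 2.5, and Pkd2l2, near background in control day 2.5, at least 1.29 above it. Khdc3 was lower than control day 2.5 with an adjusted p of 0.00717, and 0.0639 on leaving out control day 2.5 replicate 1.

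Components of RNA decay were split. Of 37 tested, 15 were higher and 7 lower in U0126 day 2.5 than in control day 1.5, but the higher count was 5 on leaving out U0126 replicate 1 and 7 on leaving out control day 1.5 replicate 2. Dcp2, the decapping enzyme, was at 7.71 and 8.44 in U0126 day 2.5 and at 3.89 and 4.49 in control day 1.5, at least 3.08 higher, while its other expressed probe set gave 0.24. Exosc9, of the RNA exosome, rose by 2.68 ± 0.24. Cnot6l, a deadenylase that acts on maternal RNA, was at 9.08 and 9.32 in U0126 day 2.5 and at 12.17 and 12.79 in control day 1.5 (-3.28 ± 0.30), and Dcp1a fell by 2.63 ± 0.26.

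Genes of the 2-cell burst went down in the arrested embryos. Of 18 tested, 11 were lower in U0126 day 2.5 than in control day 1.5 and 0 were higher (0 also at an unadjusted p under 0.05), with a median of -2.81. The lower count was 8 on leaving out U0126 replicate 1 or control day 1.5 replicate 2, 11 on leaving out U0126 replicate 2 and 10 on leaving out control day 1.5 replicate 1. Only 21 of the 40 genes on the list had a probe set with 1 symbol, and Zscan4c was not among them. Obox3, a homeobox gene, was at 6.34 and 7.28 in U0126 day 2.5, 4.33 and 4.32 in control day 2.5 and 11.45 and 11.74 in control day 1.5. It fell by 4.78 ± 0.34 (adjusted p 3.11e-06) and stood at least 1.81 above control day 2.5 (adjusted p 0.00206). Its relative Obox5 fell by 4.96 ± 0.46 and Pramel25 by 4.31 ± 0.51.

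The median gap between the U0126 arrays was wider in this list than in any other, at 0.91 in favour of replicate 2. Tcstv3 was at 3.45 on replicate 1 and 6.82 on replicate 2, Tcstv1 at 3.96 and 6.33, and Tdpoz1 at 3.83 and 5.93. Replicate 1 thus had these genes near background and replicate 2 did not. Zfp352, at 8.44 and 8.66 in U0126 day 2.5 and 10.77 and 11.49 in control day 1.5, fell by 2.58 ± 0.79 (adjusted p 0.019) and did not pass on leaving out U0126 replicate 1 (0.076), U0126 replicate 2 (0.0501) or control day 1.5 replicate 2 (0.116). Against control day 2.5, 4 of the 18 were higher in U0126 day 2.5 and 1 was lower, against 9.22% and 4.71% of all genes tested. Fewer were higher with any 1 of those 4 arrays left out.

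**Figure D4:**
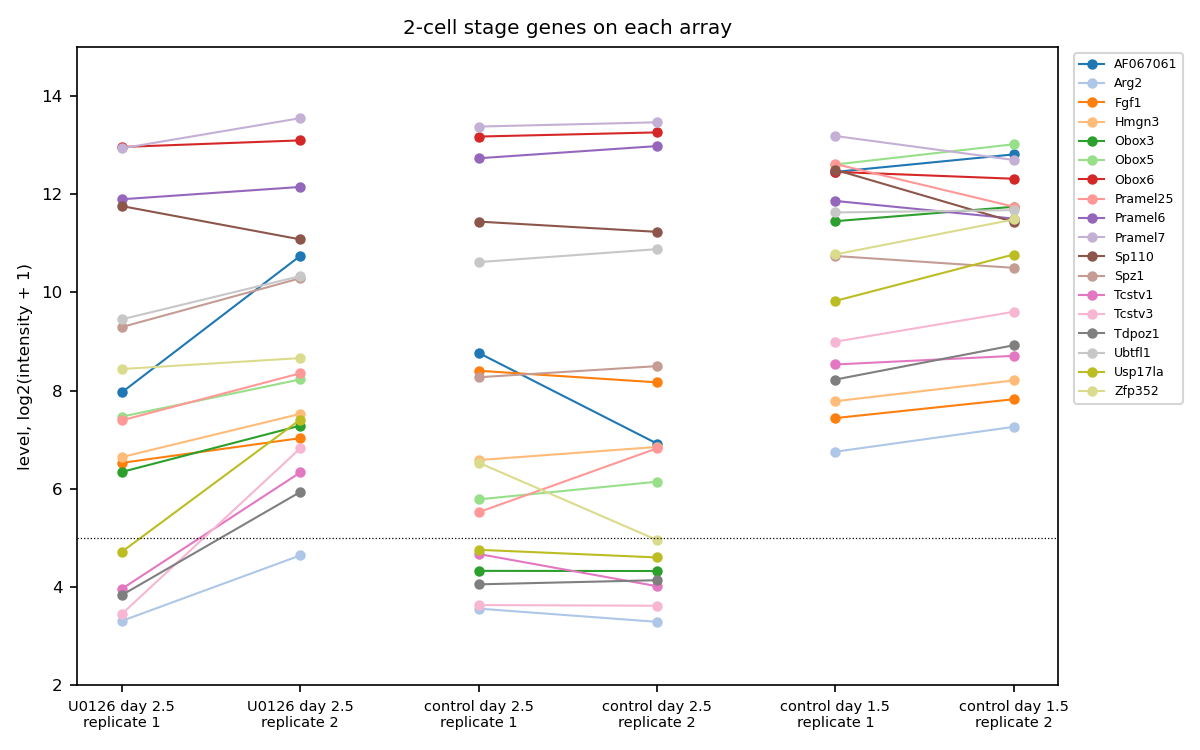
Level of the 18 tested 2-cell stage genes on each array of U0126 day 2.5, control day 2.5 and control day 1.5, as log2(intensity + 1); a line joins the 2 arrays of a group and the dotted line marks a level of 5. Lines slope up between the U0126 arrays, where 6 genes differ by more than 1, and are mostly flat between the control day 1.5 arrays.

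Transcripts that report ERK activity did not move as a block. Of 22 ERK target and feedback genes tested, 7 were higher and 4 lower in U0126 day 2.5 than in control day 1.5, close to the background shares, with a median of 0.59. The higher count was 4 and the lower count 2 on leaving out control day 1.5 replicate 2. Against control day 2.5, 5 of the 22 were higher and 4 lower in U0126 day 2.5, against 9.22% and 4.71% of all genes tested. Spry4, a feedback inhibitor induced by ERK, was at 6.44 and 6.61 in U0126 day 2.5, 5.21 and 4.91 in control day 2.5 and 9.90 and 10.59 in control day 1.5. Its fall of 3.72 ± 0.28 (adjusted p 4.76e-06) was the largest of the list, and in untreated embryos the fall was 5.18. In U0126 day 2.5 Spry4 stood 1.46 above control day 2.5, or 1.31 to 1.61 with an array left out. Dusp5, a nuclear ERK phosphatase, was at least 1.44 lower, near background in U0126 day 2.5, and its fitted difference of -2.32 ran between 1.16 and 3.48 in size as single arrays were left out.

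Egr1, an immediate early gene, was at 8.02 and 6.35 in U0126 day 2.5, 4.39 and 4.14 in control day 2.5 and 8.33 and 9.06 in control day 1.5. Its fall of 1.51 ± 0.48 (adjusted p 0.0238) did not pass on leaving out U0126 replicate 2 (0.191) or control day 1.5 replicate 2 (0.156), and it was at least 2.18 higher than in control day 2.5 (adjusted p 0.00459). Fos, its partner in the early response, was at 6.29 and 5.12 in U0126 day 2.5 and at 4.02 and 4.07 in control day 1.5 (at least 0.71 higher, with a fitted difference of 1.66, or 1.08 to 2.25 with an array left out). Fos was also at least 0.71 above control day 2.5, with a fitted difference of 1.76, or 1.17 to 2.34 with an array left out. Klf10 rose by 1.92 ± 0.38 from control day 1.5.

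Other ERK-responsive genes gave weak calls. Etv5 (1.72 ± 0.42, adjusted p 0.00617) had an adjusted p of 0.0521 on leaving out U0126 replicate 1. Dusp6, the cytoplasmic ERK phosphatase, was at 5.68 and 5.14 in U0126 day 2.5 and at 4.50 and 4.17 in control day 1.5, at least 0.41 higher, but did not pass on leaving out U0126 replicate 1 (0.131) or control day 1.5 replicate 2 (0.109). Dusp4 (fitted difference 2.30 ± 0.87, at least 1.11) rested on U0126 replicate 1, at 7.54 against 4.69 on replicate 2, and gave 0.87 without it (adjusted p 0.405). It also missed the threshold on leaving out control day 1.5 replicate 1 (0.178) or replicate 2 (0.11). Myc, at 6.02 and 6.69 in U0126 day 2.5, 8.00 and 8.09 in control day 2.5 and 5.72 and 5.84 in control day 1.5, was 0.57 ± 0.28 above control day 1.5 (adjusted p 0.11) and 1.69 ± 0.28 below control day 2.5 (adjusted p 0.00447).

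The pathway's own components were more often higher than lower. Of 18 tested, 9 were higher and 3 lower in U0126 day 2.5 than in control day 1.5, with a median of 1.08. The receptors Fgfr2 and Fgfr3 came up: Fgfr2 was at 7.56 and 7.80 in U0126 day 2.5 and at 4.42 and 5.32 in control day 1.5 (2.81 ± 0.36), and Fgfr3 was at 6.76 and 6.40 in U0126 day 2.5 and at 3.69 and 3.36 in control day 1.5, at least 1.58 higher. Sos1, the exchange factor that loads Ras, rose by 2.57 ± 0.32. Map2k1, which encodes MEK1, a target of the inhibitor, was at 8.74 and 8.61 in U0126 day 2.5, 8.71 and 8.75 in control day 2.5 and 10.06 and 10.54 in control day 1.5 (-1.63 ± 0.25). Rasa1 and Ptpn11 fell by 1.65 ± 0.24 and 1.41 ± 0.25.

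Fgf4 was the 1 of these 18 that differed from control day 2.5, where 13.9% of all genes tested did. This ligand was at 7.48 and 8.70 in U0126 day 2.5, 5.24 and 5.47 in control day 2.5 and 7.43 and 7.58 in control day 1.5. Its difference from control day 1.5 was 0.59 ± 0.37 (adjusted p 0.215), and it stood 2.73 ± 0.37 above control day 2.5 (adjusted p 0.00206).

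Several genes of the first lineages were higher in arrested embryos than in 2-cell embryos and lower than in control day 2.5. Of 23 trophectoderm markers tested, 10 were higher and 1 lower in U0126 day 2.5 than in control day 1.5, with a median of 0.67. Against control day 2.5, 6 were lower and 0 higher (0 also at an unadjusted p under 0.05) in U0126 day 2.5, against 4.71% and 9.22% of all genes tested. The last lower count was 3 with U0126 replicate 2 or control day 2.5 replicate 1 left out. Krt8, a keratin of the outer cells, was at 6.95 and 5.86 in U0126 day 2.5, 9.98 and 9.19 in control day 2.5 and 3.92 and 3.68 in control day 1.5. It was at least 1.40 above control day 1.5 (adjusted p 0.000495) and 3.19 ± 0.42 below control day 2.5 (adjusted p 0.00199). Krt18, its partner, was at 6.79 and 4.85 in U0126 day 2.5 and at 4.00 and 3.75 in control day 1.5, a call (at least 0.82 higher) that was lost on leaving out U0126 replicate 1 (fitted difference 0.97 in place of 1.94, adjusted p 0.158), control day 1.5 replicate 1 (0.0544) or replicate 2 (0.0885).

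Cdx2, the transcription factor that marks trophectoderm, was at 4.51 and 4.34 in U0126 day 2.5, 7.69 and 7.13 in control day 2.5 and 3.30 and 2.39 in control day 1.5. It stayed near background in arrested embryos, as in control day 1.5, so no size of a difference between these groups is given. Limma still called it higher than in control day 1.5 (adjusted p 0.00357). It was at least 2.41 below control day 2.5 (adjusted p 0.00135). Gata3 was at 5.97 and 5.62 in U0126 day 2.5 and at 3.42 and 3.71 in control day 1.5, at least 0.80 higher. Lrp2, an endocytic receptor also counted with primitive endoderm, was at 6.05 and 5.64 in U0126 day 2.5, 9.25 and 7.83 in control day 2.5 and 2.98 and 3.13 in control day 1.5, and stood 2.70 ± 0.43 below control day 2.5 (adjusted p 0.00407). Yap1, the Hippo pathway coactivator, was the 1 marker that fell (-1.97 ± 0.26).

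Of 28 pluripotency genes tested, 11 were higher and 2 lower in U0126 day 2.5 than in control day 1.5, with a median of 0.42. Against control day 2.5 they were split, with 4 higher and 6 lower, against 9.22% and 4.71% of all genes tested. Nanog was at 6.53 and 7.27 in U0126 day 2.5, 8.56 and 8.23 in control day 2.5 and 4.24 and 4.01 in control day 1.5. It was at least 1.90 above control day 1.5 (adjusted p 5.6e-05) and was 1.49 ± 0.32 below control day 2.5 (adjusted p 0.0136), although not on leaving out U0126 replicate 1 (0.0787) or control day 2.5 replicate 1 (0.0982). Klf2 was at 10.13 and 10.13 in U0126 day 2.5 and at 7.02 and 6.59 in control day 1.5 (3.33 ± 0.38), and Sall1 was at least 1.31 higher. Tfcp2l1 was at 6.31 and 6.45 in U0126 day 2.5, 9.85 and 9.25 in control day 2.5 and 3.82 and 4.98 in control day 1.5, which left it 3.17 ± 0.38 below control day 2.5 (adjusted p 0.00135).

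Pou5f1 and Sox2 did not pass against control day 1.5. Pou5f1 was at 9.56 and 9.19 in U0126 day 2.5 and at 9.34 and 9.05 in control day 1.5 (0.18 ± 0.46, adjusted p 0.765). Sox2 was at 5.99 and 5.66 in U0126 day 2.5 and at 6.07 and 4.36 in control day 1.5 (0.61 ± 0.59, adjusted p 0.415). Pou5f1 was 1.60 below control day 2.5 (1.15 to 2.05 with an array left out), a call lost with any 1 of those arrays left out. Sox2 was at least 0.83 above control day 2.5, near background there, and did not pass. The 2 genes lower than in control day 1.5 were Il6st (-2.28 ± 0.34), the shared receptor chain for LIF and related cytokines, and Lin28a (-0.91 ± 0.33, adjusted p 0.0386). Lin28a did not pass on leaving out U0126 replicate 2 (0.167), control day 1.5 replicate 1 (0.0613) or replicate 2 (0.157). Il6st was at 5.94 and 5.52 in U0126 day 2.5, 3.19 and 3.19 in control day 2.5 and 8.10 and 7.92 in control day 1.5, and was at least 0.73 above control day 2.5 (adjusted p 0.00206).

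Primitive endoderm is the lineage most tied to FGF and ERK in later embryos. Of its 18 markers tested, 6 were higher and 1 lower in U0126 day 2.5 than in control day 1.5. The higher share was near the 28.1% of all genes tested. Against control day 2.5, 6 were lower and 0 higher in U0126 day 2.5 (0 also at an unadjusted p under 0.05), against 4.71% and 9.22% of all genes tested. The count against control day 2.5 was 3 with control day 2.5 replicate 1 left out. Gata6, the factor that starts this lineage, was at 9.36 and 8.36 in U0126 day 2.5, 11.08 and 10.56 in control day 2.5 and 4.86 and 5.01 in control day 1.5. Its rise of 3.92 ± 0.43 (adjusted p 4.31e-05) was measured in embryos kept in the inhibitor, and its difference from control day 2.5 of -1.96 ± 0.43 (adjusted p 0.0154) did not pass on leaving out U0126 replicate 2 (0.0745) or control day 2.5 replicate 1 (0.107). Its other expressed probe sets gave differences from control day 1.5 of -0.42 and 3.67. Cited1, which had the largest rise of the trophectoderm list, rose by 3.16 ± 0.73, with sizes from 2.07 to 4.25 as single arrays were left out. Dab2, an endocytic adaptor, was at 7.59 and 6.22 in U0126 day 2.5, 10.50 and 10.01 in control day 2.5 and 7.57 and 8.98 in control day 1.5. It was 3.35 ± 0.51 below control day 2.5 (adjusted p 0.00326), and its fall from control day 1.5 (-1.37 ± 0.51, adjusted p 0.0453) was lost on leaving out U0126 replicate 2 (0.312) or control day 1.5 replicate 2 (0.349).

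Adhesion and junction genes gave 10 higher and 3 lower of 27 tested, and 5 higher on leaving out control day 1.5 replicate 2. Cdh1, the E-cadherin of compaction, was at 8.96 and 9.41 in U0126 day 2.5, 10.64 and 10.82 in control day 2.5 and 7.78 and 7.0 in control day 1.5 (1.80 ± 0.31, adjusted p 0.000809). Cldn7, a tight junction claudin, was at 9.98 and 8.73 in U0126 day 2.5, 9.87 and 9.06 in control day 2.5 and 5.83 and 3.56 in control day 1.5 (4.67 ± 0.64, adjusted p 0.000173). Ezr, which links membrane and actin, was at least 1.41 higher; its fitted difference of 1.83 ran between 1.10 and 2.56 as single arrays were left out, and its other expressed probe set gave 0.06. Another claudin, Cldn4, was at 5.89 and 4.74 in U0126 day 2.5, 8.93 and 7.74 in control day 2.5 and 3.31 and 3.35 in control day 1.5, and its rise (at least 0.32) was lost on leaving out U0126 replicate 1 (0.102), control day 1.5 replicate 1 (0.0542) or replicate 2 (0.0553). Dsc2 and Pkp4, of desmosomes and junctional plaques, were lower, Dsc2 by at least 0.31 and Pkp4 by 1.17 ± 0.25. Cldn6 (at least 0.53 lower) did not pass on leaving out U0126 replicate 2 (0.0875) or control day 1.5 replicate 1 (0.0875).

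Cell cycle genes were of particular interest in embryos that had stopped dividing. Of 52 DNA replication genes tested, 17 were higher and 7 lower in U0126 day 2.5 than in control day 1.5, with a median of 0.41; the lower count was 4 on leaving out U0126 replicate 2 or control day 1.5 replicate 2. Over all genes tested the shares were 28.1% higher and 22% lower, so the share of higher replication genes was near that of all genes. Pold1, the catalytic subunit of DNA polymerase delta, was at 9.90 and 9.63 in U0126 day 2.5, 9.34 and 9.34 in control day 2.5 and 4.61 and 5.15 in control day 1.5 (4.88 ± 0.26, adjusted p 6.36e-07). Of the clamp loader, Rfc4 rose by 3.16 ± 0.40 and Rfc3 was at least 1.71 higher. Gins2, of the replicative helicase, was at 3.71 and 3.23 in U0126 day 2.5 and at 6.96 and 6.59 in control day 1.5, at least 1.78 lower. Dbf4, the activator of the Cdc7 kinase, fell by 1.42 ± 0.31, and Slbp, which binds histone messages, by 1.40 ± 0.27; the other probe set of Slbp went the other way.

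Of 51 mitosis genes tested, 7 were higher and 17 lower, with a median of -0.55, and the lower count was 11 on leaving out U0126 replicate 1 and 24 after median centring. Nusap1, a spindle protein, was at 7.98 and 8.55 in U0126 day 2.5, 8.31 and 8.58 in control day 2.5 and 11 and 10.94 in control day 1.5 (-2.70 ± 0.28, adjusted p 2.72e-05). Nuf2, of the kinetochore, and Plk4, of centriole duplication, fell by 2.43 ± 0.31 and 2.31 ± 0.36. Wee1, the somatic relative of Wee2, was at 8.38 and 8.17 in U0126 day 2.5 and at 6.12 and 5.84 in control day 1.5 (2.30 ± 0.24, adjusted p 2.71e-05), while its other expressed probe set gave 0.55. The oocyte and somatic kinase genes thus moved in opposite directions. Cdk1 (-0.54 ± 0.27, adjusted p 0.125) and Ccnd1 (0.70 ± 0.40, adjusted p 0.17) did not pass, and Ccnb1 had no probe set with 1 symbol. The other expressed probe set of Ccnd1 gave a larger difference, 2.16.

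Set against control day 2.5, 6 of the 51 mitosis genes were higher in U0126 day 2.5 (2 after median centring), a share near the 9.22% of all genes tested, and 0 were lower (2 at an unadjusted p under 0.05). The higher count was 3 with U0126 replicate 2 left out, 2 with control day 2.5 replicate 2 left out and 1 with control day 2.5 replicate 1 left out. Of the 52 replication genes 3 were higher and 1 was lower than in control day 2.5, against 9.22% and 4.71% of all genes tested. After median centring 1 was higher and 3 were lower. With 1 of those arrays left out, 0 or 1 was higher (1 with U0126 replicate 2 left out).

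Inhibitors of the cycle and p53 targets gave 6 higher and 11 lower of 30 tested; the lower count was 7 on leaving out U0126 replicate 1 or control day 1.5 replicate 2. Gadd45g, a stress-inducible growth arrest gene, was at 9.17 and 7.10 in U0126 day 2.5, 3.57 and 3.49 in control day 2.5 and 4.09 and 3.86 in control day 1.5. It was at least 3.13 above control day 1.5 (adjusted p 0.000126) and at least 3.13 above control day 2.5 (adjusted p 0.00135), near background in both control groups. Cdkn1a, the p21 inhibitor, was at 8.78 and 8.08 in U0126 day 2.5, 8.75 and 8.48 in control day 2.5 and 6.63 and 6.09 in control day 1.5, so it rose by 2.07 ± 0.33 and did not pass against control day 2.5 (-0.18 ± 0.33, adjusted p 0.786). Rb1, the retinoblastoma gene, was at 5.98 and 5.89 in U0126 day 2.5 and at 10.36 and 10.74 in control day 1.5 (-4.61 ± 0.35, adjusted p 4.53e-06). Gadd45a was at 5.52 and 5.99 in U0126 day 2.5, 3.78 and 3.59 in control day 2.5 and 7.93 and 7.29 in control day 1.5, 1.86 ± 0.32 below control day 1.5 and at least 0.75 above control day 2.5 (adjusted p 0.00342).

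Of 16 glycolysis genes tested, 6 were higher and 5 lower, shares a few genes from the 28.1% and 22% of all genes tested, with a median of -0.09. Slc2a1, the glucose transporter GLUT1, was at 6.51 and 4.46 in U0126 day 2.5, 8.11 and 7.94 in control day 2.5 and 8.64 and 8.55 in control day 1.5 (-3.11 ± 0.53, adjusted p 0.000663). It was also below control day 2.5 (-2.54 ± 0.53, adjusted p 0.0118), but not on leaving out control day 2.5 replicate 1 (adjusted p 0.0729) or replicate 2 (0.0524), and its size ran between 1.52 and 3.57 as single arrays were left out. Slc2a3, the transporter GLUT3, was at 11.03 and 10.17 in U0126 day 2.5 and at 8.23 and 7.71 in control day 1.5 (2.63 ± 0.32). Hk1 and Pdha1, which bring glucose and pyruvate into use, rose by 3.0 ± 0.38 and 2.68 ± 0.30. Pdk1, which switches the pyruvate dehydrogenase complex off, and Ldhb, the heart-type lactate dehydrogenase, fell by 3.84 ± 0.59 and 3.52 ± 0.47.

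The largest differences from control day 2.5 were not all in the lists. Fam122b was at 10.07 and 9.55 in U0126 day 2.5, 6.33 and 7.02 in control day 2.5 and 5.02 and 5.44 in control day 1.5, 3.13 ± 0.31 above control day 2.5 (adjusted p 0.00066). Smad1, a mediator of BMP signals, was at 10.06 and 9.06 in U0126 day 2.5, 6.76 and 5.60 in control day 2.5 and 8.39 and 8.84 in control day 1.5 (3.38 ± 0.44 above control day 2.5, adjusted p 0.00197). Its level was 0.95 ± 0.44 above control day 1.5, which did not pass (adjusted p 0.0978). Klhl8 and Nexn remained 3.24 ± 0.32 and 2.94 ± 0.30 above control day 2.5 while falling by 3.30 ± 0.32 and 2.22 ± 0.30 from control day 1.5.

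Dbp, a clock-controlled PAR bZIP factor, was high in arrested embryos alone among these 3 groups, at 9.32 and 9.0 in U0126 day 2.5, 6.11 and 4.08 in control day 2.5 and 6.03 and 5.65 in control day 1.5. It was 3.32 ± 0.57 above control day 1.5 (adjusted p 0.000778) and 4.06 ± 0.57 above control day 2.5 (adjusted p 0.00244). On the other side Lasp1, an actin-binding protein, was at 9.01 and 9.65 in U0126 day 2.5, 12.63 and 12.72 in control day 2.5 and 7.49 and 5.70 in control day 1.5. Its 5 other expressed probe sets gave differences from control day 1.5 between -0.28 and 3.11. It rose by 2.74 ± 0.47 but stayed 3.35 ± 0.47 below control day 2.5 (adjusted p 0.00236). Ckmt1, a mitochondrial creatine kinase, was 3.06 ± 0.40 below control day 2.5 (adjusted p 0.00197).

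Genes of the next normal step, chosen on other arrays, were also followed from control day 1.5 to U0126 day 2.5. Between control day 3.5 and control day 2.5, 13.3% of the genes tested were higher and 8.28% lower at day 3.5. Of the 1324 that rise in that later step, 31.2% were higher and 22.1% lower in U0126 day 2.5 than in control day 1.5, with a median of 0.25. Of the 822 that fall in it, 26.5% were higher and 25.8% lower, with a median near 0. These shares are near those of all genes tested, 28.1% and 22%. With control day 1.5 as the reference, a rise cannot be told apart from the normal step to day 2.5. The shares thus cannot show whether the arrested embryos ran ahead of control day 2.5.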

How the data were processed

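Messenger RNA was measured on 12 Affymetrix arrays of the mouse genome, with 6 groups of 2 arrays, from 0.1 µg of total RNA labelled in a two-cycle protocol, per the labels' protocols. The design text names GCOS 1.2 and GeneSpring 7.3, and the submitters' processing notes name GCRMA. The deposited values are linear intensities per probe set, and GCRMA corrects background and quantile-normalizes the arrays. Median intensity per array lay between 10.8 and 11.5. The number of arrays limits the precision.

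Values were taken as log2(intensity + 1). Of 45101 probe sets, 34945 had 1 gene symbol in GEO's platform annotation, 932 had several and 9211 none. Each of 18193 genes was given its brightest probe set, and the 9929 whose level reached 5 on 2 or more arrays were tested. Limma 3.58.1 (R 4.3.3) fitted 1 mean for each group over all 12 arrays, with 6 residual and 4.51 prior degrees of freedom. The fit was also run on simulated data with independent noise, far fewer changed genes than here and none of them near background. That run thus cannot show how secure the calls on these arrays are. Genes with an adjusted p under 0.05 were called.

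The 27 gene lists and the members were chosen with earlier results of these data known. The 183 named genes are the 12 largest rises and falls among genes measured on all 4 arrays, the 8 surest rises from and falls to background, up to 3 in each direction per list, the 6 largest differences each way from control day 2.5, and 40 genes of known role.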

Additional observations from a re-analysis of the deposited data

How the results depend on the processing

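The count of genes called between U0126 day 2.5 and control day 1.5 was 4975, and 3671 to 5741 over 11 alternatives, 4045 to 4734 of them with 1 array left out; that for control day 2.5 against control day 1.5 was 4468 to 6139. The count for U0126 day 2.5 against control day 2.5, 1383 in the main setting, was 0 in a fit of those 4 arrays alone (2245 at an unadjusted p under 0.05) and 409 to 1183 with 1 array left out. In a fit with the replicate number as a block (replicate pairing) the 3 counts were 5741, 6139 and 2061; same-numbered arrays of different groups deviated together (r 0.125 to 0.417 over 15 pairs of groups), but the labels do not say that a number marks an experiment. The block changed no call of the 180 tested named genes against control day 1.5 and added 17 calls against control day 2.5. A fit of only the 4 arrays lost 14 of the named calls against control day 1.5 and 61 of those against control day 2.5. Of the shares of next-step genes called the same way, rising genes ranged from 25.1% to 35.8% and falling ones from 21.2% to 29.8%, including fits without an array of control day 2.5 or control day 3.5, which were added after the data were seen. Under the mean of all probe sets the difference of Slbp was 0.14 (adjusted p 0.667) in place of a fall in the brightest one; its other probe set that reached 5 on 2 arrays gave 1.78. Leaving out an array of a group of 2 assumes that the lone array varies like the other groups.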

Other observations

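Stress genes gave 13 higher and 4 lower of 33 tested in U0126 day 2.5 against control day 1.5. Txn1, the cytosolic thioredoxin, was at 12.40 and 11.57 in U0126 day 2.5 and at 7.80 and 8.17 in control day 1.5 (4.00 ± 0.31, adjusted p 5.05e-06), and Txnrd1, which reduces it, rose by 3.46 ± 0.61. Asns, the asparagine synthetase of the amino acid response, was at 7.74 and 8.34 in U0126 day 2.5 and at 4.80 and 5.16 in control day 1.5. Prdx2, a peroxiredoxin, was at 8.23 and 8.12 in U0126 day 2.5 and at 12.15 and 12.54 in control day 1.5 (-4.17 ± 0.25, adjusted p 1.28e-06). The heat shock gene Hspa1a fell by 2.46 ± 0.55, and Hspa1b (-1.28 ± 0.44) did not pass on leaving out U0126 replicate 1 (0.0527), U0126 replicate 2 (0.13) or control day 1.5 replicate 2 (0.178). Both share near-identical sequence, so their probe sets may not be separate measures.

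Of 38 regulators of DNA methylation and chromatin, 9 were higher and 10 lower, and 6 lower on leaving out control day 1.5 replicate 2. With all arrays, both shares were near the 28.1% and 22% of all genes tested. Tet1, a 5-methylcytosine dioxygenase, was at 9.12 and 8.61 in U0126 day 2.5 and at 5.56 and 6.14 in control day 1.5 (3.02 ± 0.37, adjusted p 9.21e-05). Uhrf1, which guides Dnmt1 to replicated DNA, and Bmi1, a Polycomb subunit, fell by 1.85 ± 0.41 and 1.89 ± 0.28. Of 20 solute transporters, 8 were higher and 1 lower. Slc38a2, a neutral amino acid transporter, was at 7.20 and 7.53 in U0126 day 2.5 and at 3.39 and 4.09 in control day 1.5, at least 2.36 higher. Slc6a9, a glycine transporter, was the lower one (-2.73 ± 0.35). Of 18 sterol synthesis genes, 4 were higher and 1 lower, neither share above the 28.1% and 22% of all genes tested. The largest rises among them were those of Msmo1 (2.97 ± 0.40) and Fdps (2.63 ± 0.40). Of 45 splicing factors, 17 were higher and 4 lower, led by Eftud2 (2.80 ± 0.34), a GTPase of the U5 particle; the lower count was 0 on leaving out U0126 replicate 1 and 1 with either control day 1.5 array left out.

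Cd68, a lysosomal protein used as a macrophage marker, was at 7.29 and 6.50 in U0126 day 2.5, 4.62 and 4.31 in control day 2.5 and 3.90 and 3.50 in control day 1.5. It was at least 1.90 above control day 1.5 (adjusted p 9.98e-05) and at least 1.90 above control day 2.5 (adjusted p 0.00452), while the other 8 of the 9 blood and immune markers lay under 5 on both U0126 arrays. The part of other cells in this value was not tested.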
